A study of Mus musculus with 11 samples.

Results

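The Bach2 locus was taken as every open-chromatin peak whose assigned gene in the deposited ATAC-seq table is Bach2, which gave 54 of the 45508 listed peaks. ATAC-seq uses the transposase Tn5 to insert adapters where DNA is open, so the reads in a peak measure how accessible that stretch is. The libraries came from naive CD4 T cells of untreated mice, taken from spleen and lymph nodes, that carry the Tg(Nr4a1-EGFP)GY139Gsat transgene and the Foxp3tm1Flv targeted mutation on a C57/BL6 background. The transgene makes green fluorescent protein from regulatory DNA of Nr4a1 (Nur77), which signals from the T cell receptor induce, and Foxp3tm1Flv adds a red reporter (Foxp3-RFP) to the regulatory T cell gene Foxp3. All 4 populations were CD4+, Foxp3-RFP negative and CD44 low, and received no receptor stimulus. Population D was Nur77-GFP high and Ly6C negative, population C was GFP intermediate and Ly6C negative, and population B was GFP intermediate and Ly6C positive, with 3 libraries each, from mice 1, 2 and 3. Population A was GFP low and Ly6C positive, with 2 libraries, from mice 1 and 3. Each library came from 10000 cells, and the age and sex of the mice are not given in the sources used here. D against A compares the extremes of the reporter, with Ly6C changing too. D against C and B against A compare reporter levels within 1 Ly6C class, and C against B compares Ly6C classes at an intermediate reporter level.

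Bach2 is a transcriptional repressor of the BTB and basic leucine zipper class. It binds DNA as a dimer with small Maf proteins, at sites that overlap those of AP-1 factors. In mouse lymphocytes it is known for holding naive T cells back from effector differentiation and for repressing Prdm1, which encodes Blimp1, in B and T cells, and its gene is known for a long array of enhancers in T cells.

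The 54 peaks spread over 280.5 kb of mm10, chr4:32201801-32482299. By number of peaks Bach2 ranked 4 among 14922 genes with a listed peak, whose median was 2. The authors' distances all refer to 1 start site at chr4:32417435 on the plus strand, and distances below are measured from it. RefSeq's Bach2 gene on the same assembly (GRCm38.p6) starts 179.0 kb before that site and runs over chr4:32238413-32586109, 347.7 kb, with 1 curated and 11 predicted transcript models. The deposited annotation labels 48 of the peaks intergenic and 6 as lying in intron 1 of the curated transcript. Of the 48, 44 lay inside the RefSeq gene and 4 before it. Among all 54 peaks, 7 fell in annotated repeats and 1 in a CpG island. Widths ran from 140 to 2382 bases with a median of 624 bases, against 761 bases for all listed peaks.

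The assigned start site itself held no listed peak. The nearest listed peaks lay 3.782 kb before and 5.951 kb after its promoter window, which RefSeq's promoter table gives as the 250 bases before the start and 50 after it. A listed peak overlapped 39.4% of the 32851 promoter windows in that table. The 250 bases before the start, chr4:32417185-32417434 on the plus strand of GRCm38.p6, are printed from that table with CG pairs in capitals. This is the stretch to which every distance refers, and it held no listed peak. The 4 populations share 1 peak list, and reads in this stretch are not given for any of them.
Bach2, 250 bases before the assigned start: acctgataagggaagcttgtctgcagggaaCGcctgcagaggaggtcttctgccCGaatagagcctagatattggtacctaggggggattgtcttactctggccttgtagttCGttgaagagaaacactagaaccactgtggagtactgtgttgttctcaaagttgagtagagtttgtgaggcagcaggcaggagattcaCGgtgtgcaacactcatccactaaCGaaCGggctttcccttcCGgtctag
It holds 7 CG pairs, and the median over all windows was also 7. On both strands of the 300-base window, none of 8 short motifs was found. TGANTCA (AP-1) was present in 7.81% of all windows, and GCTGANTCA (Bach and Maf), which contains it, in 1.19%. TGTGGTTT (Runx) was present in 1.78%, AAAGGTCA (Nr4a) in 1.51%, TGTTTAC (Fox) in 3.65%, CTTTGAA (Tcf and Lef) in 5.14%, ACAGGAAG (Ets) in 3.58% and TGGAAA (NFAT) in 21.4%.

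Values are deposited as rppm, reads per peak scaled to a common total per library. The totals behind them were 2597176, 6875973 and 36859230 reads in D, 5095885 to 35244031 in C, 8736371 to 25061500 in B, and 9194084 and 9933354 in A. The listed peaks held 92.5% (D of mouse 3) to 94.7% (A of mouse 3) of these totals. Whether the totals count all sequenced reads is not given in the sources used here. By these totals, library D of mouse 1 was the shallowest, and in every population the library of mouse 3 was the deepest. A level of 10 rppm corresponds to 26 reads in that library and to 369 reads in D of mouse 3. All 8 CD4 T cell marker genes examined had listed peaks. Of the B cell genes, Ms4a1 and Pax5 were among those with none, and of 6 myeloid and dendritic genes Lyz2 and Csf1r had none. Summed over the 11 listed peaks of B cell genes, the libraries had 153 to 199.7 rppm in D, 156 to 184 in C, 162 to 194 in B and 193 to 199 in A. The 12 peaks of the other myeloid genes summed to 59.7 to 72.7 rppm in D, 81.7 to 88.8 in C, 87.2 to 88.8 in B and 78.1 to 82.9 in A. The 37 peaks at 4 regulatory T cell genes summed to 532 to 575 rppm in D, 421 to 464 in C, 417 to 436 in B and 424 to 448 in A. In D against A, 14 of these were higher by the test used below (37.8%, where 8.7% of all listed peaks were called higher). Of these 14, 8 were at Ikzf2, 5 at Ctla4 and 1 at Il2ra. The 3 lower ones (8.11%, where 3.74% of all listed peaks were called lower) were all at Il2ra. Foxp3 had no called peak. The Il2ra peak with the smallest p, chr2:11634975-11636654, was lower, with 17.8 ± 2.16 rppm in D and 37.1 ± 0.47 in A (SD; limma adjusted p = 9.89e-05). By the same test, 1 of 66 peaks at CD4 T cell genes was higher (1.52%) and 3 were lower (4.55%). The lower ones were 1 each at Cd4, Cd3e and Cd28, and the higher one was at Cd28. Of the 12 myeloid and dendritic peaks, 1 was higher (8.33%, at Itgam) and 2 were lower (16.7%, at Itgam and Itgax). No B cell peak was called. At CD8 T and NK cell genes, 3 of 22 peaks were higher (13.6%, against 8.7% of all listed peaks) and 0 lower (against 3.74%). They were 1 each at Cd8a, Eomes and Gzmb, and Ncr1 had no listed peak. These 22 summed to 469 to 529 rppm in D, 474 to 498 in C, 463 to 504 in B and 484 to 492 in A. The part of these marker differences in the Bach2 results was not tested.

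Between the extremes of the reporter the Bach2 locus changed in both directions. In D against A, 6 of the 54 peaks were higher (11.1%, where 8.7% of all listed peaks were called higher) and 5 were lower (9.26%, where 3.74% of all listed peaks were called lower). Called means an adjusted p under 0.05 in limma on log2(rppm + 1), with Benjamini-Hochberg adjustment over all 45508 peaks. The median log2 change was -0.11 over the 54 peaks and -0.04 over all peaks. The other 43 Bach2 peaks had log2 changes of -0.60 to 0.91, and 30 of them were within 0.3 of no change. A sort of this kind reads a mixture of cells, so fewer cells with an open peak and less opening per cell cannot be told apart. The p-values rest on 3 mice, of which 2 gave a library of population A.

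**Figure D1:**
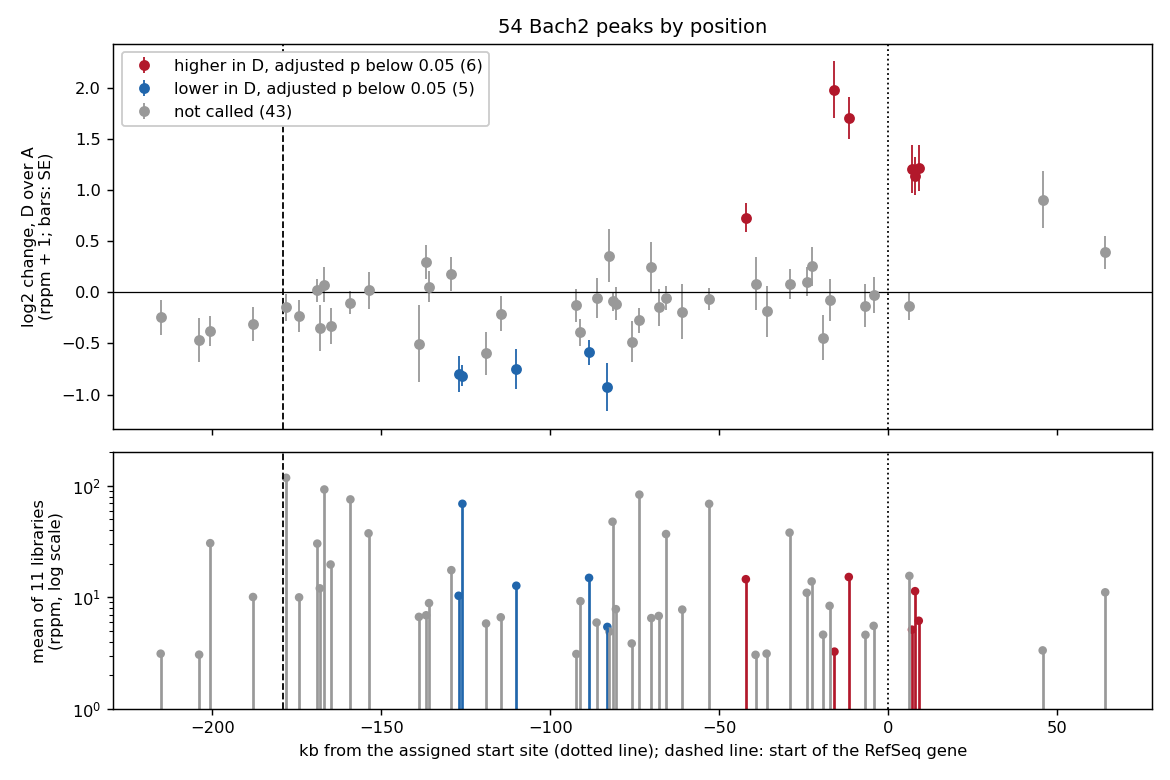
Upper panel: log2 change of D over A with its standard error for each of the 54 Bach2 peaks (points), by distance in kb from the assigned start site (dotted line); the dashed line is the start of the RefSeq gene. Lower panel: mean rppm of the 11 libraries on a log scale. The 5 lower peaks (blue) sit between 127.1 and 83.1 kb upstream, and the 6 higher peaks (red) between 42.1 kb upstream and 9.1 kb downstream.

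Without a mouse term the called peaks fell into 2 stretches that did not interleave, but with the mouse as a block they did. The block added lower calls from 200.7 to 19.2 kb upstream, of which the last, chr4:32398056-32398418, lies inside the stretch of higher peaks (limma adjusted p = 0.0387 with the block). Without the block, all 5 lower peaks lay in 44.4 kb, chr4:32290073-32334513, where each of the 10 Bach2 peaks had a log2 change below 0 and the median was -0.59. All 6 higher peaks lay in 52.0 kb, chr4:32374834-32426799, where 10 of 16 peaks had a change above 0, with a median of 0.09. Between the stretches were 40.3 kb with 10 uncalled peaks, whose log2 changes ran from -0.48 to 0.36. The 16 peaks before the lower stretch ran from -0.50 to 0.30, and the 2 after the higher stretch stood at 0.91 and 0.39. The stretches were drawn from the calls themselves, so these medians are a description.

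The peak with the smallest p among the lower ones was also among the most accessible of the locus. This peak, chr4:32290833-32292063, lies 126.0 kb upstream of the assigned start and 53.0 kb inside the RefSeq gene. It had 47.4, 46.8 and 44.1 rppm in D of mice 1, 2 and 3, against 83.9 and 79.7 rppm in A of mice 1 and 3. Populations C (78.5, 75.8 and 67.2 rppm) and B (77.7, 84.1 and 75.6 rppm) lay near A. Each D library was below each of the other 8 libraries. The log2 change of D over A was -0.81 ± 0.10 (SE; limma adjusted p = 0.000101), with D at 0.564 of the mean of A. Right before it, chr4:32290073-32290588 (127.1 kb upstream) had 5.39, 7.85 and 7.30 rppm in D, 9.62, 13.9 and 11.6 in C, 10.2, 11.9 and 10.9 in B, and 12.5 and 12.5 in A. D was again below every other library, and its log2 change over A was -0.80 ± 0.18 (SE; limma adjusted p = 0.00826).

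The other 3 lower peaks were weaker sites than the one at 126.0 kb upstream. At chr4:32307084-32307733, 110.0 kb upstream, D had 6.16, 10.9 and 8.03 rppm, C had 11.0, 15.0 and 13.3, B had 14.9, 17.3 and 14.4, and A had 14.1 and 14.7 rppm. All D libraries were below all others here, by a log2 change over A of -0.75 ± 0.19 (SE; limma adjusted p = 0.0207). At chr4:32328519-32329370, 88.5 kb upstream and annotated as a SINE repeat, D had 11.2, 10.0 and 10.3 rppm, C had 15.5, 16.5 and 16.1, B had 17.5, 18.9 and 16.2, and A had 16.5 and 16.01. D stood apart from the other 8 libraries, which spanned less than the gap between them and D, and its log2 change over A was -0.59 ± 0.12 (SE; limma adjusted p = 0.00504). At chr4:32334214-32334513, 83.1 kb upstream, D had 4.24, 3.20 and 3.50 rppm, C had 4.71, 5.25 and 6.04, B had 3.45, 6.75 and 6.94, and A had 8.70 and 6.95. Here 1 library of B fell inside the range of D, and the log2 change of D over A was -0.92 ± 0.24 (SE; limma adjusted p = 0.0191).

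Of the higher peaks, that at chr4:32405282-32406415, 11.6 kb upstream, had the smallest p and the highest level in D. It had 23.1, 31.3 and 27.8 rppm in D, 14.3, 13.99 and 12.3 in C, 8.46, 13.4 and 7.62 in B, and 8.70 and 6.64 in A. D lay above every other library, C overlapped with B through 1 library of B, and B overlapped with A. D was 3.57-fold higher than A in mean rppm (log2 change 1.71 ± 0.21, SE; limma adjusted p = 7.64e-05). The peak at chr4:32401460-32401753, 15.8 kb upstream, had the largest fold of D over A at the locus, 6.34, and the lowest mean in A. It had 8.86, 6.98 and 7.27 rppm in D, 0.785, 2.78 and 2.58 in C, 1.67, 1.26 and 1.24 in B, and 1.52 and 0.906 in A. Only D exceeded 3 rppm, the smallest count behind these values was 4 reads, and the log2 change of D over A was 1.98 ± 0.28 (SE; limma adjusted p = 0.000262).

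A cluster of 3 higher peaks lay in intron 1 of the curated transcript, just downstream of the assigned start. At chr4:32424230-32424860 (7.11 kb downstream) D had 8.47, 8.73 and 9.50 rppm, C had 2.55, 5.76 and 5.19, B had 3.45, 2.98 and 3.27, and A had 2.94 and 3.62. D was above all others, and the log2 change over A was 1.21 ± 0.24 (SE; limma adjusted p = 0.00312). At chr4:32424919-32426018 (8.03 kb downstream) D had 13.5, 19.9 and 19.4 rppm, C had 9.03, 11.4 and 11.3, B had 8.35, 9.27 and 7.94, and A had 8.59 and 6.24. Again no D library overlapped with another population, and the log2 change over A was 1.14 ± 0.19 (SE; limma adjusted p = 0.00104). At chr4:32426332-32426799 (9.13 kb downstream) D had 6.55, 10.8 and 11.0 rppm, C had 6.67, 7.40 and 6.98, B had 3.34, 5.27 and 3.03, and A had 3.37 and 3.42. This is the one site of the 3 at which C lay above B without overlap and 1 D library lay below all of C, and the log2 change of D over A was 1.22 ± 0.23 (SE; limma adjusted p = 0.0025). The increase did not extend to the neighbouring peak 102 bases before this cluster, chr4:32423435-32424127, which had means of 14.6 ± 1.27 rppm in D, 16.8 ± 1.86 in C, 15.0 ± 0.75 in B and 16.1 ± 0.66 in A (SD), with a log2 change of -0.14 (limma adjusted p = 0.62). That peak was picked after its values were seen.

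The remaining higher peak, chr4:32374834-32375915, lies 42.1 kb upstream. It had 15.4, 20.9 and 18.9 rppm in D, 14.3, 15.4 and 14.2 in C, 12.5, 13.7 and 13.5 in B, and 10.7 and 10.6 in A. The means followed the order of the reporter and of Ly6C, with D and C overlapping and C, B and A not. Its log2 change of D over A was 0.73 ± 0.14 (SE; limma adjusted p = 0.00274). The same order of means, D above C above B above A, held at 5 of the 6 higher peaks, and the reverse order at 2 of the 5 lower ones.

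**Figure D2:**
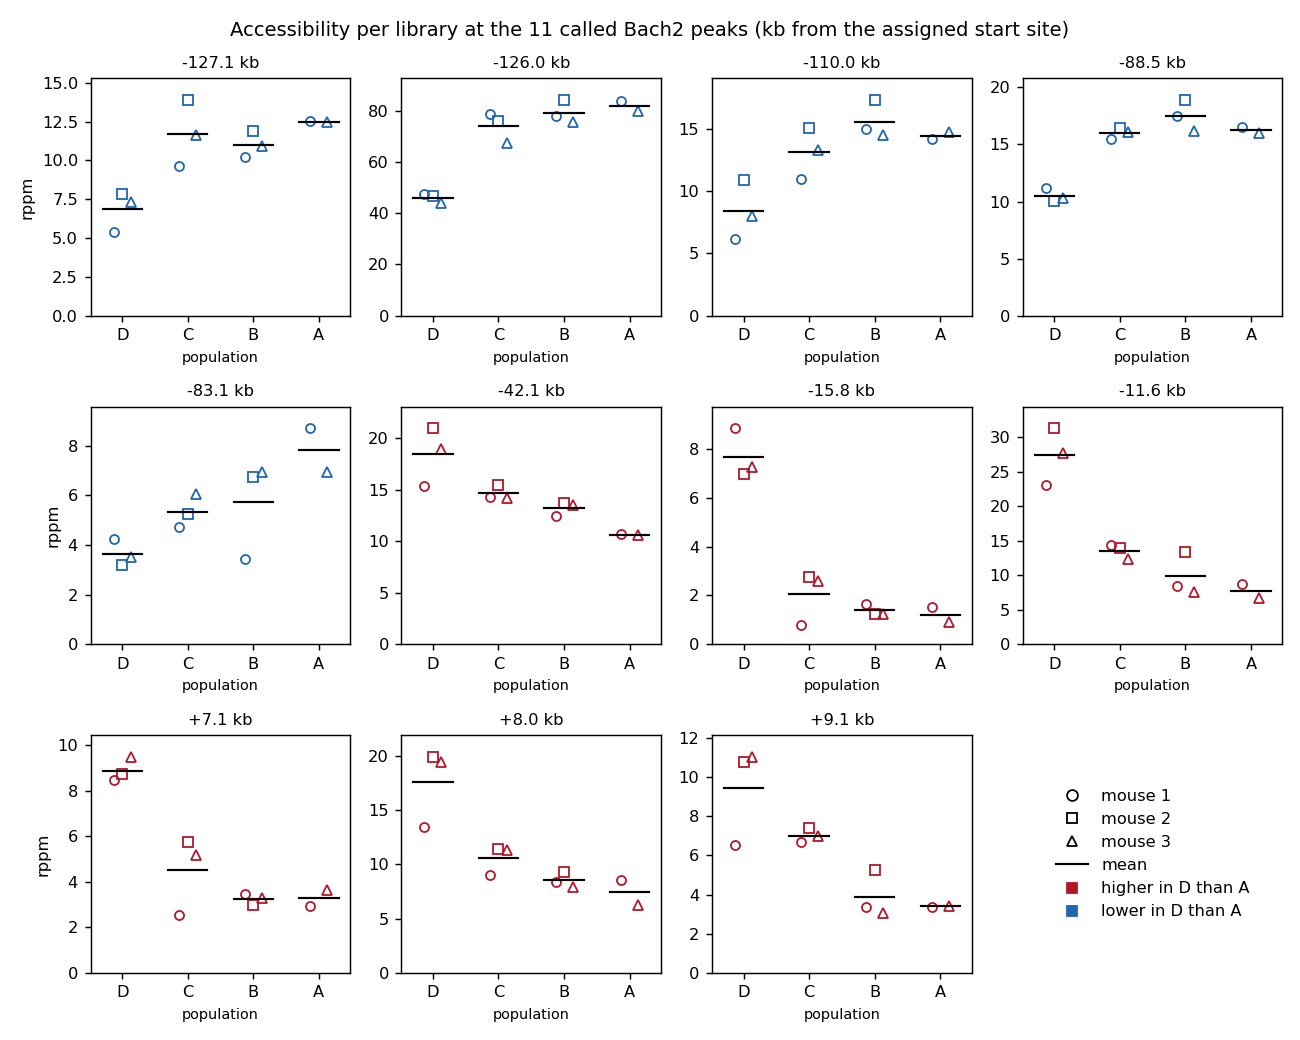
Values in rppm (vertical axis from 0) of each library at the 11 Bach2 peaks called in D against A, by population and mouse, with the population mean as a line; peaks are named by kb from the assigned start. At each of the 5 lower peaks (blue) the D libraries lie below both A libraries, and at each of the 6 higher peaks (red) they lie above both.

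Of the 5 most accessible sites of the locus, by rppm per peak without scaling to width, 1 was called in D against A. The strongest, chr4:32238250-32240252, holds the CpG island and spans the start of the RefSeq gene. It had 95.1, 119 and 120.0 rppm in D, 122.6, 136 and 114 in C, 131, 108 and 109 in B, and 114 and 132 in A. The populations overlapped, with a log2 change of D over A of -0.15 ± 0.13 (SE; limma adjusted p = 0.59). Among the 5 peaks of highest mean, the log2 change ran from -0.81 to 0.08, and the one at 126.0 kb upstream was the only one called. The peak at chr4:32249648-32251496 had 84.3, 107 and 107 rppm in D, 70.1, 92.7 and 96.8 in C, 74.7, 103 and 98.7 in B, and 98.5 and 89.5 in A. At chr4:32343025-32344664 D had 80.5, 62.4 and 73.4 rppm, C had 88.7, 81.9 and 84.3, B had 97.7, 86.6 and 89.3, and A had 93.3 and 81.0. Its D libraries were below the others without overlap, but D against A did not pass the test (log2 -0.27 ± 0.12, SE; limma adjusted p = 0.18, and 0.0712 with the mouse block). It passed without D of mouse 1 (limma adjusted p = 0.0489). With the mouse block it passed in D against C (log2 -0.24, limma adjusted p = 0.0412), where D was lower in 3 of 3 mice. At chr4:32257710-32258863 D had 77.8, 66.9 and 76.9 rppm, C had 79.3, 69.0 and 74.7, B had 74.1, 77.3 and 78.2, and A had 87.1 and 71.7, all overlapping. The peak nearest the assigned start, chr4:32413017-32413403 (4.22 kb upstream), was low in every library and overlapped throughout. It had 5.39, 4.36 and 5.83 rppm in D, 5.69, 6.17 and 5.73 in C, 6.79, 4.81 and 5.67 in B, and 5.77 and 4.83 in A.

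Counting libraries rather than calls, D lay above A without overlap at 9 of the 54 peaks (16.7%, where 19.3% of all listed peaks did) and below A without overlap at 19 (35.2%, where 18.0% of all listed peaks did). Among the 54 peaks, 6 had a mean of at least 50 rppm, 20 lay between 10 and 50, and 28 were under 10. The next peak after the higher stretch, chr4:32462921-32463579 (45.8 kb downstream), was just outside the threshold. It had 5.00, 3.49 and 6.21 rppm in D, 1.57, 3.29 and 4.34 in C, 3.12, 3.32 and 2.23 in B, and 2.07 and 2.11 in A, with a log2 change of D over A of 0.91 ± 0.28 (SE; limma adjusted p = 0.0506).

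Summed over the locus, the opposite changes nearly cancelled. All 54 peaks together had 1037.9 ± 68.4 rppm in D, 1092 ± 48.1 in C, 1103 ± 27.6 in B and 1091 ± 36.5 in A (SD; n = 3, 3, 3 and 2), so D stood at 0.952 of A. The direction differed by mouse. In mouse 1 the sum was 963.7 rppm in D and 1116 in A, and in mouse 3 it was 1098 in D and 1065 in A. The 43 uncalled peaks made up 873 ± 58.8 rppm in D, 920.1 ± 44.1 in C, 934 ± 20.7 in B and 924 ± 29.3 in A. The 6 higher peaks summed to 89.5 ± 12.0 rppm in D, 52.3 ± 4.54 in C, 40.1 ± 5.07 in B and 33.6 ± 3.09 in A. The 5 lower peaks summed to 75.5 ± 2.95 rppm in D, 120.0 ± 6.10 in C, 129 ± 8.68 in B and 133 ± 4.15 in A. The 2 called sets were chosen on D against A, so their sums describe size only. In D the 5 lower peaks held fewer rppm than the 6 higher ones, and in A they held more.

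**Figure D3:**
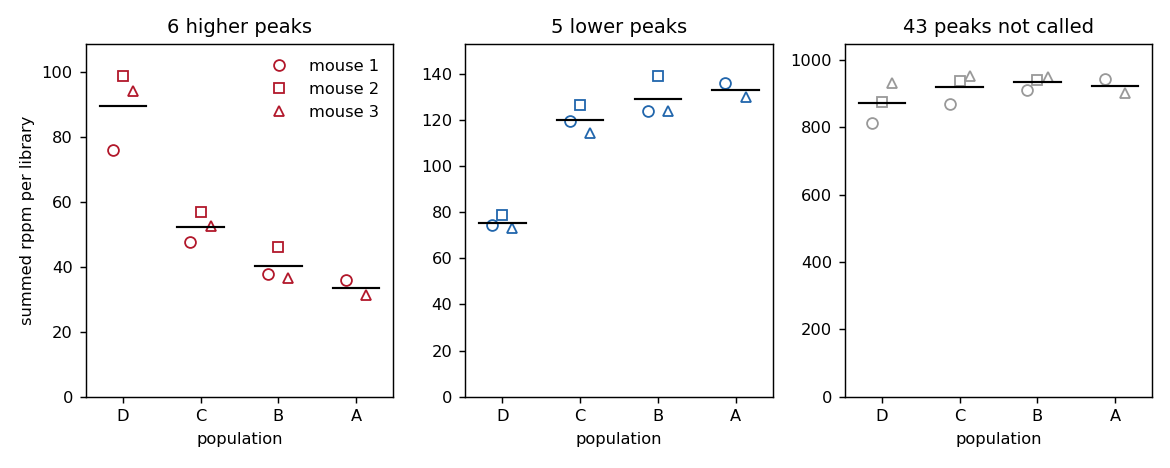
Summed rppm per library (vertical axes from 0) over the 6 higher, the 5 lower and the 43 uncalled Bach2 peaks, by population and mouse, with population means as lines. The higher set averages 89.5 rppm in D and 33.6 in A, the lower set 75.5 in D and 133 in A, and the uncalled set 873 in D and 924 in A.

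Within the Ly6C negative cells, the step between intermediate and high reporter gave the calls between neighbouring populations. In D against C, 4 Bach2 peaks were higher (7.41%, where 4.51% of all listed peaks were called) and 3 were lower (5.56%, where 1.49% were called), and all 7 were among the 11 peaks called in D against A. The 2 comparisons share the D libraries. The higher ones were at 15.8 kb upstream (log2 1.58 ± 0.25, SE), 11.6 kb upstream (0.96 ± 0.19), 7.11 kb downstream (0.90 ± 0.21) and 8.03 kb downstream (0.67 ± 0.17), with limma adjusted p of 0.00154, 0.00648, 0.0209 and 0.0329. The lower ones were at 127.1 kb (log2 -0.70 ± 0.16, SE), 126.0 kb (-0.67 ± 0.09) and 88.5 kb upstream (-0.56 ± 0.11), with limma adjusted p of 0.0186, 0.00053 and 0.00637. Within mice, D was below C at all 5 lower peaks in 3 of 3 mice. D was above C in 3 of 3 mice at 5 of the 6 higher peaks, the exception being the one at 9.13 kb downstream. These 11 peaks were chosen on D against A with the same D libraries, so the counts by mouse are a description. D was also below C in 3 of 3 mice at uncalled peaks, such as chr4:32213363-32213639. Counts in D against C depended on single libraries. Without D of mouse 2 or without D of mouse 3 the higher calls dropped to 2, and without C of mouse 2 or C of mouse 3 the lower calls were 2. Over all listed peaks the higher calls were 1660 without D of mouse 2 and 1423 without D of mouse 3, against 2052 with all libraries. The lower calls over all listed peaks were 389 without C of mouse 2 and 338 without C of mouse 3, against 678.

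Neither of the other steps gave a call at the locus. In C against B, where Ly6C differs at an intermediate reporter level, 0 of 54 peaks were called (0.0022% of all listed peaks were called higher and 0.0% lower), and at an unadjusted p under 0.05 there were 3 higher and 0 lower. The smallest limma adjusted p was 0.47, at 9.13 kb downstream, where C averaged 7.02 ± 0.37 rppm and B 3.88 ± 1.21 (SD, n = 3 each). In B against A, 0 of 54 peaks were called (0.0% of all listed peaks), with 0 higher and 1 lower at an unadjusted p under 0.05. That 1 was at 19.2 kb upstream, where B averaged 3.99 ± 0.41 rppm and A 6.10 ± 0.63 (SD, n = 3 and 2; limma adjusted p = 1.0). On recovered reads, the quasi-likelihood test of edgeR called 0 Bach2 peaks in both steps, and DESeq2 called 0 of 54 in C against B and 0 of the 41 it tested in B against A. In C against B, edgeR with the mouse as a block called 2 higher, and limma with the block and without D of mouse 1 called 1 higher. Over the 11 called peaks, C against B log2 changes ran from -0.24 to 0.74 and B against A from -0.43 to 0.29. An F test over all 4 populations called 10 of the 54 peaks (18.5%, where 9.64% of all listed peaks were called), all among the 11. D against A is among the differences that this F test takes from the same fit, so the overlap is no separate evidence.

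**Figure D4:**
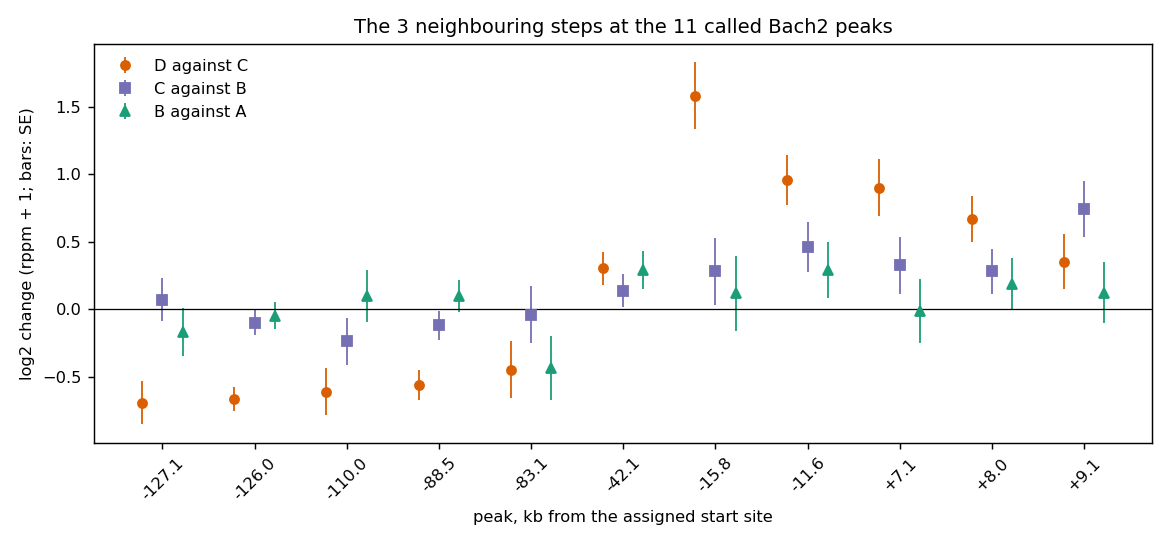
Log2 changes on the rppm + 1 scale with standard errors for the steps D against C, C against B and B against A at the 11 called Bach2 peaks, in order along the chromosome (kb from the assigned start). D against C lies below 0 at the 5 peaks farthest upstream and above 0 at the other 6, from 0.30 to 1.58. It is the only one of the 3 steps with called peaks.

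The reporter step among Ly6C negative cells was set against the reporter step among Ly6C positive cells, as the difference of D against C and B against A. No Bach2 peak was called (0.609% of all listed peaks were called higher and 0.022% lower). The smallest limma adjusted p was 0.0679, at 126.0 kb upstream, with a difference of -0.62 ± 0.14 on the log2 scale (SE). With the mouse as a block, 3 Bach2 peaks were called for this difference (1.35% of all listed peaks were called higher and 0.815% lower).

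Each replicate number is 1 mouse, and the mouse block moved the lower calls. With it, 8 Bach2 peaks were higher in D than in A (14.8%, where 12.5% of all listed peaks were called) and 9 were lower (16.7%, where 8.79% were called), including all 11 of the fit without it. The added higher peaks lay 45.8 and 64.3 kb downstream, with limma adjusted p of 0.0235 and 0.0442. The added lower peaks lay at 200.7, 138.9, 119.0 and 19.2 kb upstream (the third inside the lower stretch and the last inside the higher one), with limma adjusted p of 0.00485, 0.0382, 0.0143 and 0.0387. In D against C the block gave 4 higher and 5 lower (6.82% and 4.53% of all listed peaks). The call on lower peaks in D against A rested on few libraries. It dropped to 1 without A of mouse 1, to 2 without A of mouse 3, to 3 without D of mouse 3, and to 1 without all libraries of mouse 3, which left 1 higher peak too. Over all listed peaks the lower calls numbered 480 without A of mouse 1, 614 without A of mouse 3 and 1584 without D of mouse 3, against 1701 with all libraries. Leaving out mouse 3 left 937 higher and 87 lower of all listed peaks, against 3957 and 1701 with it. The peaks at 126.0 and 11.6 kb upstream stayed called in D against A under all 21 alternatives, and the other 9 each lost the call without mouse 3.

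Other genes with a similar pattern were ranked by Pearson r over the 11 libraries, as a description. The libraries share mice and scaling. For the summed Bach2 rppm the nearest of 688 genes with at least 10 peaks were Ankrd11 (r = 0.96), Pitpnc1 (0.92), Jarid2 (0.91), Wasf2 (0.91) and Zfand3 (0.89). Ankrd11 summed to 259.6 rppm in D, 284 in C, 293 in B and 283 in A. For the higher Bach2 peak at 11.6 kb upstream, the most similar peaks were at Ctla4 (chr1:60908684-60909411, r = 0.99), Bcl2l11 (chr2:128072834-128073431, r = 0.98) and Mgat5 (chr1:127344787-127345435, r = 0.98). Ctla4 encodes an inhibitory receptor of T cells, Bcl2l11 the pro-apoptotic protein Bim, and Mgat5 an enzyme of N-glycan branching. The Ctla4 peak averaged 52.1 rppm in D, 38.1 in C, 33.3 in B and 31.4 in A, and the Bcl2l11 peak 6.32 rppm in D, 1.57 in C, 0.74 in B and 0.37 in A. The nearest in the Bach2 locus itself was the peak at 8.03 kb downstream (r = 0.95). For the lower Bach2 peak at 126.0 kb upstream, the most similar were at Prkcq (chr2:11205687-11206199), Neb (chr2:52314778-52315443) and Dyrk2 (chr10:118712864-118713572), each with r = 0.99. Prkcq encodes the kinase PKC-theta, which acts downstream of the T cell receptor, and its peak averaged 13.4 rppm in D, 23.7 in C, 27.3 in B and 28.8 in A.

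Peaks assigned to genes that act with Bach2 were counted in D against A by the same calls. Dimer partners and the paralog (Mafk, Mafg, Maff and Bach1) had 23 peaks, with a median log2 change of -0.02. Among them 1 was higher (4.35%, against 8.7% of all listed peaks) and 0 lower (against 3.74%). The 1 was at Bach1, chr16:87764574-87765303, with 15.9 ± 6.25 rppm in D and 8.18 ± 1.04 in A (SD; limma adjusted p = 0.0275). AP-1 and Irf factors, which bind overlapping or composite sites, had 76 peaks, with a median of -0.03. Among these 5 were higher (6.58%, against 8.7% of all listed peaks) and 0 lower (against 3.74%). The higher ones were at Batf, Jun, Fosb and, with 2 peaks, Irf4. At chr13:30831267-30831692, assigned to Irf4, D had 6.40 ± 1.91 rppm and A 0.884 ± 0.17 (SD; log2 1.94, limma adjusted p = 6.51e-05). The upstream regulators had 29 peaks, with 1 higher (3.45%, against 8.7% of all listed peaks) and 1 lower (3.45%, against 3.74%). Both were among the 27 peaks of Foxo1, a factor of naive T cell quiescence, and Men1 had none of 2. The higher one, chr3:52270507-52270902, had 15.1 ± 1.65 rppm in D and 6.78 ± 0.66 in A (SD; limma adjusted p = 0.000377).

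Genes known to be repressed by Bach2 in mouse lymphocytes had 59 peaks, of which 9 were higher (15.3%, against 8.7% of all listed peaks) and 4 lower (6.78%, against 3.74%) in D than in A, with a median log2 change of -0.09. All 9 higher peaks were at 2 genes. Gata3, the lead factor of type 2 helper cells, had 5 of 25 higher, the one with the smallest p at chr2:9577576-9578568 with 6.82 ± 0.24 rppm in D and 2.20 ± 0.03 in A (SD; limma adjusted p = 0.000271). Ifng, which encodes interferon gamma, had 4 of 7 higher, the one with the smallest p at chr10:118460050-118460769 with 12.3 ± 0.99 rppm in D and 1.2 ± 0.16 in A (SD; log2 2.60, limma adjusted p = 4.81e-07). Lower peaks were at Rora (2 of 10), Prdm1 (1 of 9, log2 -0.53, limma adjusted p = 0.0318) and Il1rl1 (1 of 4, log2 -0.88, limma adjusted p = 0.00949), which encodes the receptor of interleukin 33. The single peaks of Il4 and Il13 and the 2 of Il5 were not called.

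Around the locus, the 8 other genes with peaks within 500 kb had 40 peaks, with a median log2 change of 0.08 in D against A. By the same calls, 4 were higher (10.0%, against 8.7% of all listed peaks) and 0 lower (against 3.74%). Of these, 3 were assigned to Map3k7, which encodes the kinase TAK1, and lay on the upstream side of the Bach2 peaks. The one with the largest change, chr4:32126483-32127297, had 13.9, 9.74 and 9.90 rppm in D, 3.34, 3.81 and 3.35 in C, 2.23, 1.83 and 1.60 in B, and 1.96 and 1.21 in A. D stood apart from all other libraries, with a log2 change over A of 2.23 ± 0.20 (SE; limma adjusted p = 6.36e-06). The fourth was assigned to Bach2os, the antisense transcript of Bach2, and lies in intron 2 of the curated Bach2 transcript at chr4:32544796-32545514. It had 4.62, 5.82 and 4.91 rppm in D, 2.35, 3.29 and 3.35 in C, 2.67, 2.06 and 2.39 in B, and 2.07 and 2.72 in A (log2 of D over A 0.85 ± 0.18, SE; limma adjusted p = 0.0068). Of the 9 peaks assigned to Bach2os, 8 lay inside the RefSeq Bach2 gene, downstream of the last peak assigned to Bach2. The assignment to the nearest start site therefore left part of the gene's own introns outside the 54.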

How the data were processed

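Per the labels, 11 ATAC-seq libraries came from cells tagmented for 1 h at 37 °C. The deposited values are RPM (called rppm, per the file headers). The submitters' processing notes name Bowtie, MACS2 and mm10, without versions or roles, and the denominator, read filters and peak pooling are not given in the sources used here. All values (100%, within 0.001 rppm) were whole multiples of 1 read, so reads were recovered. They carry no molecular identifiers and may include copies.

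limma 3.58.1 (R 4.3.3) was fitted to log2(rppm + 1) over 45508 peaks, 1 mean per population, variance trend, two-sided, Benjamini-Hochberg adjustment, threshold 0.05. The pseudocount of 1 understates changes of low peaks. Same-mouse deviations correlated at 0.18 to 0.56 in 15 pairs, so the mouse block is given.

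Peaks given by library are the one nearest the start, the 5 strongest and all called in D against A. Members, lists and motifs were chosen with earlier results of these data known. edgeR 4.0.16 and DESeq2 1.42.0 were alternatives on recovered reads. edgeR called 6428 of all peaks in D against A, limma 5658. Entrez identifiers of 45447 of 45493 peaks matched RefSeq. Motifs in peaks were not searched, since no genome was used here.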

Additional observations from a re-analysis of the deposited data

Results flagged for a closer look

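At 3 Bach2 peaks the step of D against C differed from the step of B against A when the mouse was a block in limma, which is what singled them out. At chr4:32290833-32292063 the difference was -0.59 on the log2 scale, with an adjusted p of 0.00901 with the block and 0.0679 without it. At chr4:32328519-32329370 it was -0.65, with an adjusted p of 0.0409 with the block and 0.112 without it. At chr4:32401460-32401753 it was 1.497, with an adjusted p of 0.0481 with the block and 0.129 without it. D minus C had the sign of that difference in 3 of 3 mice at each of these peaks. D minus C is part of the difference that singled them out, so this is a description. B minus A was -6.13 and -4.16 rppm in mice 1 and 3 at the first peak, 0.951 and 0.153 rppm at the second, and 0.147 and 0.331 rppm at the third. In the main fit, which has no block, no Bach2 peak passed the test of this difference. Some other settings without the block did give calls, as listed below.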

How the results depend on the processing

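Of the 11 peaks called in D against A, the direction was kept in all 230 results under 21 other settings and the call in 207. Leaving out a library of B or C, or keeping only the populations compared, cannot change the limma log2 change of D over A. Under those settings the kept direction was fixed by construction, and only the call could move. The main counts were 6 higher and 5 lower in D against A, 4 higher and 3 lower in D against C, 10 by the F test, and 0 for the difference between steps. With the mouse (replicate) block, which pairs libraries of the same animal, lower peaks numbered 9 in D against A and 5 in D against C, and the difference between steps 3. The block without D of mouse 1, added after seeing the data, gave 8 lower in D against A, 6 lower in D against C, 1 higher in C against B and 5 for the difference between steps. Over all 45508 listed peaks these counts were 2977, 1878, 278 and 1741. edgeR with the block, also added after seeing the data, gave 9 lower in D against A, 7 higher and 6 lower in D against C, 2 higher in C against B, 17 by the F test and 4 for the difference between steps. Over all listed peaks edgeR with the block called 3287 lower in D against A, and 4800 higher and 2485 lower in D against C. It called 646 higher in C against B, 10731 by the F test and 1711 for the difference between steps. Thinning to the shallowest library gave 3 lower in D against A, 1 higher and 1 lower in D against C, and 6 by the F test. Over all listed peaks thinning gave 585 lower in D against A, 745 higher and 133 lower in D against C, and 2117 by the F test. Without mouse 3 there were 1 higher and 1 lower in D against A, 0 higher and 0 lower in D against C, and 1 by the F test. In both of these fewer reads or libraries entered by construction. Higher peaks in D against C were 2 with a minimum mean of 5 rppm, and 2 higher and 1 lower with only the populations compared. Over all peaks tested these counts were 738 of 35075 with the minimum mean, and 1272 and 154 of 45508 with only the populations compared. A pseudocount of 5 gave 2 for the difference between steps, where 544 of all listed peaks were called. Leaving out 1 library at a time gave 5 to 7 higher and 1 to 6 lower in D against A, 2 to 5 higher and 2 to 4 lower in D against C, 7 to 11 by the F test and 0 to 1 for the difference between steps. Where an arm kept 1 library, it was assumed to vary like the others. Some uncalled peaks changed sign. The peak at chr4:32413017-32413403 (log2 -0.03) stood at 0.0302 with the block, 0.0425 in edgeR, 0.0018 in DESeq2 and 0.45 when thinned, and at -0.134 to 0.0798 with 1 library left out. The peak at chr4:32249648-32251496 stood at -0.0492 without mouse 3, and chr4:32257710-32258863 at -0.238 to 0.0395 with 1 library left out. The cause of these moves was not tested. The planned motif search in peaks was not run. Depth limits peaks under 10 rppm most, where the shallowest library holds fewer than 26 reads.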
